A study of Homo sapiens with 16 samples.

Results

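Interferon-stimulated genes are the genes that cells turn on when an interferon binds its receptor. A list of 42 such genes was followed by gene symbol through transcripts (RNA-seq) and ribosome footprints (Ribo-seq, the sequencing of the stretches of mRNA that ribosomes protect). All 42 were found among the 23597 genes of the RNA-seq table and among the 19201 genes of the footprint table. After a filter on low counts, 37 of the 42 were tested among 13177 genes in RNA-seq, 29 among 11288 in footprints, and 29 among 11166 for translational efficiency, the ratio of footprints to RNA. MX2, OAS1, RSAD2, HERC5 and CMPK2 had too few counts in RNA-seq. These 5 and BST2, EPSTI1, IRF7, ISG20, OASL, OAS2, IFIH1 and IFI44L had too few in footprints, where RSAD2 had 0 counts in every library.

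The cells were WI-38, an established line of human lung fibroblasts with a limited number of divisions. The young groups were at passage 24 and the senescent groups at passage 36. All groups had been kept without serum for 24 h and with serum again for 24 h to align their cell cycles. The young heat shock and senescent heat shock groups then spent 2 h at 44 °C (the labels give 440C, read here as a lost degree sign), and the young control and senescent control groups did not. Each of these conditions had 2 RNA-seq and 2 footprint libraries, so that 16 libraries formed 8 groups of 2. The labels do not say what separates replicate 1 from replicate 2, and p-values measure only the spread between these libraries, which may be technical.

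Type I and type III interferons act through receptors coupled to JAK kinases, which activate a complex of STAT proteins with IRF9. That complex binds the interferon-stimulated response element in promoters, and interferon gamma acts through a separate element, the gamma-activated site. The products block viruses at entry (IFITM proteins), bind foreign RNA (IFIT proteins, OAS enzymes, DDX58 and IFIH1), tag proteins with the ubiquitin-like ISG15, or amplify the response (STAT2, IRF7, IRF9). In fibroblasts the programme is a usual answer to infection, and it has also been described in late senescence.

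RNA-seq libraries held 26434514 to 37126871 counts and footprint libraries 4581141 to 9104077. The heat shock gene HSPA1A had 54.3 to 74.1 TPM (a transcript level corrected for gene length and library size) in the control RNA libraries and 8113 to 16549 in the heat-shocked ones. All 10 fibroblast markers were expressed, with a sum of 9982 to 15170 TPM in RNA. Of 10 leukocyte markers, 9 stayed under 1 TPM in every RNA library and 3 were at 0, and the sum of 103.8 to 177.8 TPM was nearly all CD68, a lysosomal protein that fibroblasts also make. Of 6 endothelial markers 5 stayed under 1 TPM, with a sum of 12.4 to 25.1 TPM, and 4 of 7 epithelial markers stayed under 1. The epithelial sum, carried by the keratins KRT8, KRT18 and KRT19, was 133 to 147 TPM in the young RNA libraries and 188 to 224 in the senescent ones. Fold changes are log2 values ± SE, with n = 2 libraries per group, after TMM scaling, which sets the bulk of genes near 0. Scaled by library size alone, the median of all genes on heat shock shifts by −0.28 in RNA of young cells, −0.22 in RNA of senescent cells, −0.27 in footprints of young cells and −0.28 in footprints of senescent cells. TPM of heat-shocked libraries lies lower by about as much, so levels in TPM should be compared within a treatment.

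Replicate 2 of the senescent groups stood apart for these genes, and results on senescence are therefore given by replicate. The difference between the libraries of a pair was taken for the 29 members tested in both assays, on log2 CPM (counts scaled to library size). Replicate 2 exceeded replicate 1 by over 1 in 11 of 29 members in senescent control RNA, against 2.84% of all 11166 genes, and in 6 of 29 in senescent heat shock RNA, against 2.08%. In footprints it did so in 11 of 29 members in senescent control, against 10.5% of all genes, and in 14 of 29 in senescent heat shock, against 5.43%. The young pairs gave 0 of 29 in control RNA (1.52% of all genes), 1 in heat shock RNA (1.67%), 0 in control footprints (0.251%) and 2 in heat shock footprints (7.74%). Replicate 2 was the higher library in all 4 senescent pairs for 21 of 29 members, against 16.7% of all genes, and in all 4 young pairs for 3 members, against 13.7%. MX1, OAS3, IFI27, IFI6 and IFITM1 exceeded 1 in all 4 senescent pairs. OAS3 also did so in young heat shock footprints, with 2 and 41 counts, and MX1 rested on few footprint counts, such as 0 and 37 in senescent control. TRIM22, DDX58 and IFIT5, in contrast, were lower in replicate 2 of all 4 RNA pairs, young ones included.

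**Figure D1:**
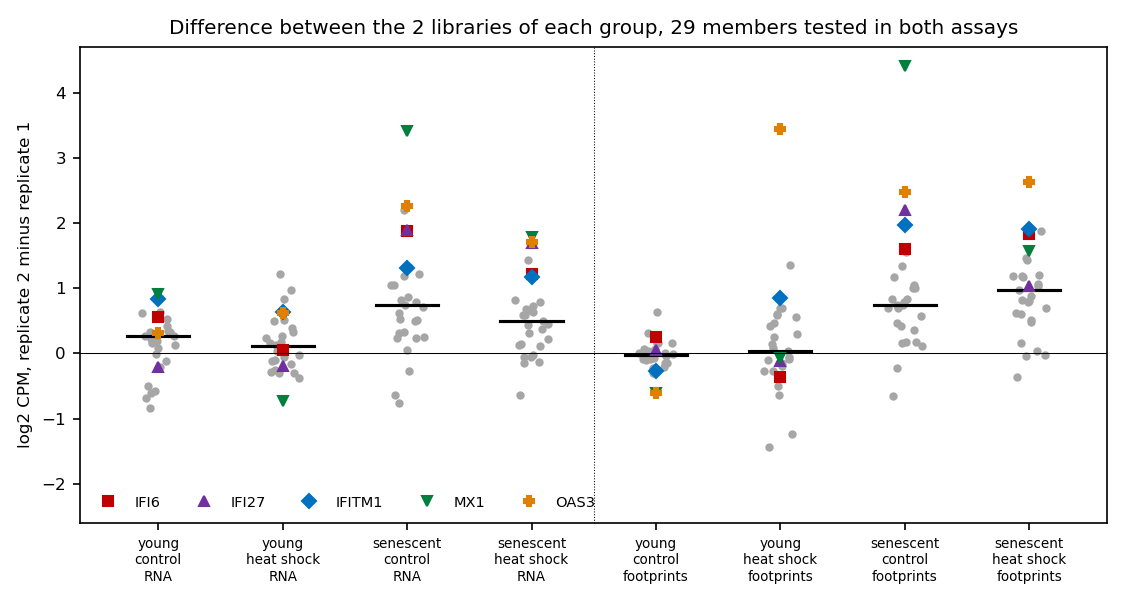
Difference of replicate 2 from replicate 1 (log2 CPM, y axis) in each of the 8 pairs of libraries (x axis), for 29 interferon-stimulated genes, with the median as a bar. The medians of the senescent pairs are 0.75, 0.50, 0.74 and 0.98, and those of the young pairs lie between −0.02 and 0.26; IFI6, IFI27, IFITM1, MX1 and OAS3 are coloured.

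The genes that exceeded 1 in all 4 senescent pairs numbered 39 of 11166 (0.349%), and beside the 5 members they included genes of cell division such as MKI67, CDC20, UBE2C, TK1 and MCM5, named after their values were seen. MKI67, a marker of dividing cells, had 6.05 and 8.76 TPM in young control RNA, 3.34 and 5.91 in young heat shock, 1.32 and 4.63 in senescent control cells, and 1.68 and 5.45 in heat-shocked senescent cells. Its level in senescent replicate 2 thus lay nearer to the young libraries than that in replicate 1. In control RNA the senescence marker LMNB1 ran the same way, with 18.9 and 19.2 TPM in young and 6.03 and 8.46 in senescent cells. CDKN1A ran the other way, with 619 and 678 against 951 and 1312 TPM, so that replicate 2 was farther from the young libraries. CDKN2A overlapped between the states, at 16.3 and 24.5 against 19.7 and 25.3 TPM. Cell division genes and interferon-stimulated genes were both higher in replicate 2 of the senescent pairs, and their part in each other's values was not tested. The division genes named were also higher in replicate 2 of both young RNA pairs. CDC20 differed by 1.12 in young control and 1.19 in young heat shock, and UBE2C by 1.30 and 1.16. TK1 differed by 1.43 and 1.26, MCM5 by 0.80 and 0.65, and MKI67 by 0.61 and 0.90. Of the 5 members, IFI6 differed by 0.56 and 0.05, and IFITM1 by 0.84 and 0.64. OAS3 differed by 0.31 and 0.63, MX1 by 0.91 and −0.72, and IFI27 by −0.21 and −0.19. The summed leukocyte markers were also higher in replicate 2 of every RNA pair, young ones included, with 104 and 164 TPM in senescent control, and CD68 made up 103 and 164 of these. The defining leukocyte marker PTPRC was at 0 in all 4 senescent RNA libraries. In bulk libraries, fewer cells that express a gene and less RNA per cell cannot be told apart.

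In young control RNA the list spanned from very abundant transcripts to undetected ones. IFITM3, a membrane protein that traps viruses in endosomes, was the most abundant at 598 ± 18.4 TPM (SD, n = 2), followed by IFITM2 at 171 ± 10.8. ISG15, the ubiquitin-like modifier, had 79.7 ± 29.1 TPM and UBE2L6, the enzyme that conjugates it, 55.8 ± 6.70, and these neighbours did not differ beyond their spread. Next came the transcription factor subunits STAT2 (35.6 ± 0.72 TPM) and IRF9 (26.4 ± 6.86), then TRIM22, a ubiquitin ligase with antiviral activity (24.1 ± 8.95), and IFI6, a small membrane protein that blocks flavivirus replication (19.4 ± 4.52). IRF9, TRIM22 and IFI6 overlap in their ranges over the young controls. At the low end, 15 of 42 members had a mean under 1 TPM, among them the classical induced effectors MX1 (0.48 ± 0.28 TPM), OAS2 (listed at 0) and RSAD2 (0.02 in both libraries). IFITM2 and IFITM3 are near-identical copies, and the sharing of reads between such copies makes their split uncertain. SAMD9 and SAMD9L are more diverged paralogues, and the sharing of reads between them was not examined.

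**Figure D2:**
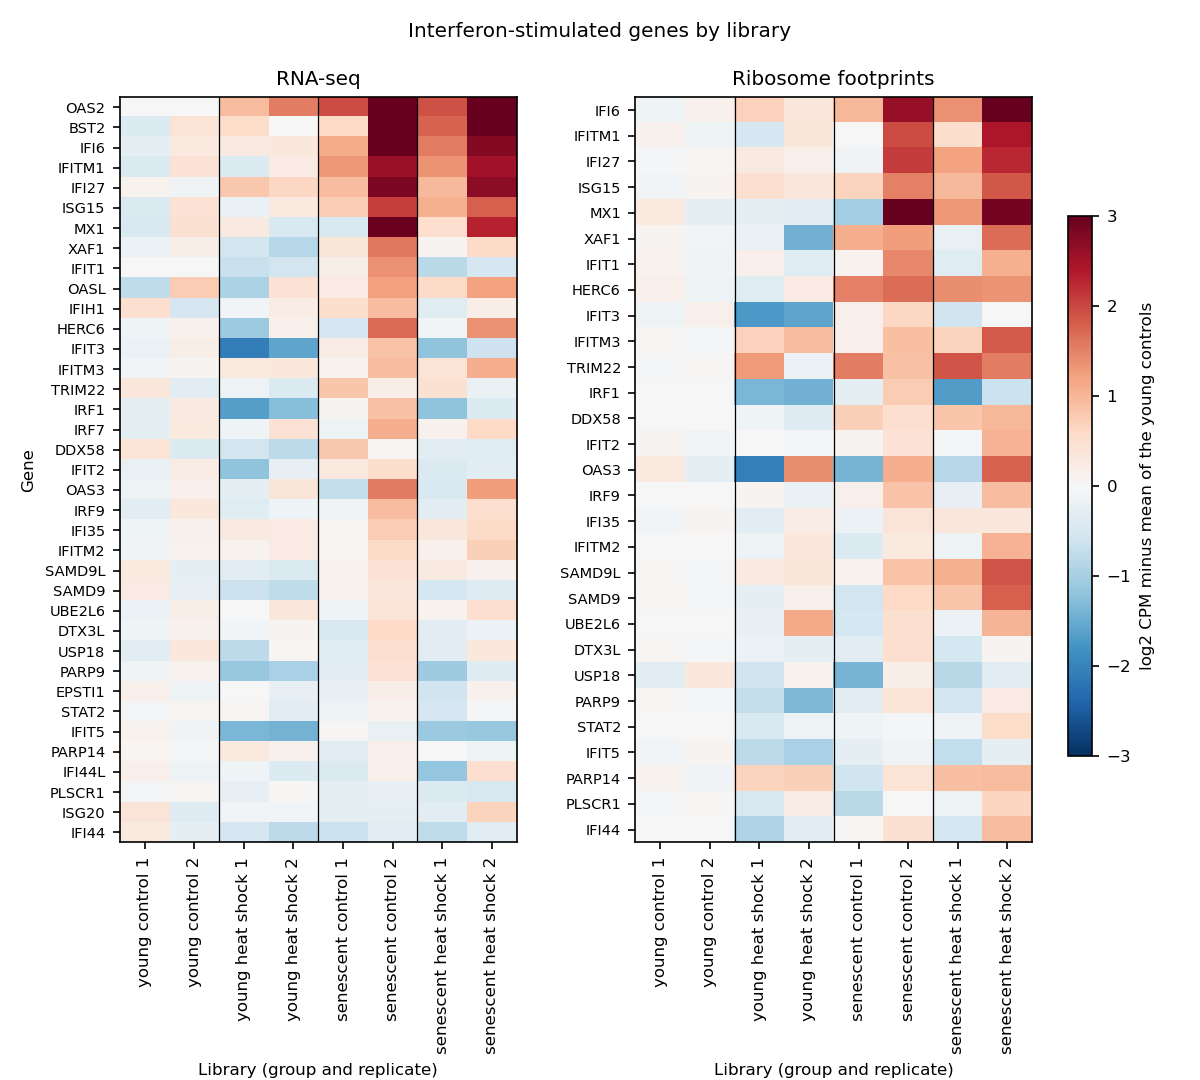
Level of each tested member in each library (columns), as log2 CPM minus the mean of the young controls, for RNA (left, 37 members) and footprints (right, 29 members); red is higher and blue lower, and the scale ends at 3. The darkest red cells lie in replicate 2 of the senescent groups, and IFIT3, IRF1, PARP9 and IFIT5 are blue in heat-shocked young cells.

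Promoters are shown for 5 members whose RNA was higher in senescent control replicate 2 than in replicate 1, and for IRF1, which is also described below for heat. The 5 have the largest such difference among members with a mean of at least 5 CPM over the RNA libraries and a match to the response element core described here, so that less abundant members with larger differences, such as MX1 and BST2, are not shown. IRF1 differed by 0.80 on log2 CPM, close to the 0.82 of IFITM3, and IRF9, which held no match, by 1.05. Since a match was required of the 5, a link between matches and the replicate difference was not tested. Sequences are from RefSeq on GRCh38.p14 and run from 250 bases before to 50 bases after a gene's start, in the direction of the gene. They lie at chr1:27672143-27672442 (IFI6, minus strand), chr1:1013247-1013546 (ISG15, plus strand), chr11:313790-314089 (IFITM1, plus strand), chr11:320811-321110 (IFITM3, minus strand), chr3:122564088-122564387 (DTX3L, plus strand) and chr5:132490724-132491023 (IRF1, minus strand). Capitals mark the letters GAAA, any 2 bases and GAAA, the core of the interferon-stimulated response element, in all but IRF1, where they mark TTCNNNGAA, the core of the gamma-activated site. In ISG15 a pair of overlapping matches forms 1 run of capitals. In IFITM1 a TTCNNNGAA overlaps the second match and is in capitals only in the bases they share.
IFI6: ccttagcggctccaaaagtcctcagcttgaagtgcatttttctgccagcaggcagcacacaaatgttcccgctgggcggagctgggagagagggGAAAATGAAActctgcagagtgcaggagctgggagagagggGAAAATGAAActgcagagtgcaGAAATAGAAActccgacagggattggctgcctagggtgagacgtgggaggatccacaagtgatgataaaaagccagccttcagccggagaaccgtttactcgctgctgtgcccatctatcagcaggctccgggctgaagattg
ISG15: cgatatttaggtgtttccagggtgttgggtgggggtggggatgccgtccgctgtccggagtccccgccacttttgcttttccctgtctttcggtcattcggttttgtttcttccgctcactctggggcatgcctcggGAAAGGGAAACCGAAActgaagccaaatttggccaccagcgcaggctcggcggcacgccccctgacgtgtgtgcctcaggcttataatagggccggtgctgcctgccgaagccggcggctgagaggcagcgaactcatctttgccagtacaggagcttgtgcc
IFITM1: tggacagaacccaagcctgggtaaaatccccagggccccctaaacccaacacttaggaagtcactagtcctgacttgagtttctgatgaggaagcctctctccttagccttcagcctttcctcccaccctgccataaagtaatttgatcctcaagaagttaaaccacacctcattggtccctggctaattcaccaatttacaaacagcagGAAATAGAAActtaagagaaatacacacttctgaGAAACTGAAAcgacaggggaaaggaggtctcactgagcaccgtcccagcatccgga
IFITM3: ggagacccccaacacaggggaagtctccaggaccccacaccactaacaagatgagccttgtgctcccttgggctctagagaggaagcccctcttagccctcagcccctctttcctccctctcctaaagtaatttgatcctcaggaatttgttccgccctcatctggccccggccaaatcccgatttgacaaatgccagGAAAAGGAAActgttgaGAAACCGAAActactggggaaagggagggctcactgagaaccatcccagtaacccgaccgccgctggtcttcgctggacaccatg
DTX3L: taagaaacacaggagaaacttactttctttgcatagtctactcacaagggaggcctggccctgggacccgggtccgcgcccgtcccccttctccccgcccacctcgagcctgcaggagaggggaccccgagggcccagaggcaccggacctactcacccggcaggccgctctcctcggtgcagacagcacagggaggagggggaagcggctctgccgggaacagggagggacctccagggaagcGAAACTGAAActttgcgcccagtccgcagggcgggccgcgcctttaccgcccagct
IRF1: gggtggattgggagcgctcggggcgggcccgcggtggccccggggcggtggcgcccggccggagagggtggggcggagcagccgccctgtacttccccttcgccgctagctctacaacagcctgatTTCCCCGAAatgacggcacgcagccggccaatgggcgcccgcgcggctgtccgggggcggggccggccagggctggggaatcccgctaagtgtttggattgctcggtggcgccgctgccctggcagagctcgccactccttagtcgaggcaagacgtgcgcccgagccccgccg

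IFI6 held 3 matches of this response element core, ISG15, IFITM1 and IFITM3 held 2 each, DTX3L held 1 and IRF1 held 0. By symbol, 33 of the 42 members were matched in RefSeq, with 45 start windows, since 10 genes had several starts. Both strands were searched, and TTCNNNGAA reads the same on both. The response element core occurred in 28 of the 45 windows (62.2%), belonging to 23 of the 33 genes, against 1255 of all 35116 windows of that length (3.57%). TTCNNNGAA occurred in 13 of 45 (28.9%), in 11 genes, against 2689 of all windows (7.66%). IFIT2, IFITM2, MX2, OAS2, OASL, IRF7, DDX58, USP18 and TRIM22 were not matched. A match describes letters in the window and does not show that a factor was bound in these cells.

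Comparing senescent with young control cells asks whether the programme was on in senescence without stress. The epithelial sum moved with the same comparison. KRT19 had 46.6 and 66.4 TPM in young and 94.5 and 93.6 in senescent control RNA, while the lung epithelial marker SFTPC was at 0. KRT8 (11.9 and 17.4 against 16.8 and 23.0 TPM) and KRT18 (75 and 52 against 86 and 71) overlapped between the states. In footprints the epithelial sum was 79.7 and 88.0 TPM in young and 124 and 116 in senescent controls, and its part in the members' values was not tested. In RNA, 3 abundant members, IFI6, ISG15 and IFITM1, were higher in both senescent libraries than in both young ones, by 5.03-fold, 2.82-fold and 4.14-fold, with replicate 2 well above replicate 1. No member passed edgeR's quasi-likelihood test at an adjusted p of 0.05, where 4 of 13177 genes were called higher (0.0304%) and 1 lower (0.00759%), or 0.0379% in either direction. At an unadjusted p under 0.05 there were 6 of 37 members, against 7.2% of genes. RNA libraries with the same number deviated together across genes, so a fit with the replicate number as a block is given where it changes a call. The block assumes 1 replicate difference shared by all groups. Among the 37 members alone, replicate differences correlated at 0.79 between the senescent groups. Between young heat shock and either senescent group the correlation was only 0.06, so the block describes these genes less well. With that block 4 members were higher, ISG15, IFI6, IFITM1 and OAS2, against 2.15% of genes, and 0 lower, against 1.57%. DESeq2 called 3 members and limma on log2(TPM + 1) called 0. Here and below, shares of all genes are given for edgeR only, so counts by other methods have no background beside them. The median of the 37 members was 0.47, against −0.00 for all genes, with 29 above 0, against 49.6% of all genes.

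Of the membrane proteins, IFI6 and IFITM1 were apart between the states in TPM, and IFITM2 and IFITM3 were not. IFI6 had 16.2 and 22.6 TPM in the young control libraries, and 38.7 and 137 in senescent control replicates 1 and 2. Both senescent libraries lay above both young ones, with replicate 2 far above replicate 1. Its log2 fold change was 2.33 ± 0.60 (edgeR adjusted p = 0.33, with the block 0.026). IFITM1, which acts at the cell surface against virus entry, had 9.56 and 16.3 TPM in young and 28.7 and 68.4 in senescent controls, again without overlap. Its log2 fold change was 2.05 ± 0.55 (edgeR adjusted p = 0.36, with the block 0.0063). IFITM3 had 585 and 612 TPM in young controls and 598 and 1015 in senescent ones, so that the groups were apart in CPM but overlapped in TPM, and only replicate 2 was far from the young values (0.57 ± 0.31, edgeR adjusted p = 0.79). IFITM2, at 163 and 179 against 164 and 227 TPM, overlapped between groups. BST2, or tetherin, which holds budding virus on the cell, went from 2 and 4 counts in young controls to 5 and 57 in senescent ones, nearly all of it in replicate 2.

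Among the ISG15 genes, ISG15 itself had 59.1 and 100.3 TPM in young and 119 and 288 in senescent controls. The groups did not overlap, and the log2 fold change was 1.49 ± 0.48 (edgeR adjusted p = 0.50, with the block 0.012). UBE2L6 had 51.0 and 60.5 TPM in young and 47.4 and 65.0 in senescent controls (0.15 ± 0.27), and USP18, which removes ISG15 from proteins, had 10.8 and 15.9 against 9.43 and 16.6 (0.10 ± 0.43). The modifier was thus higher in both senescent libraries while its conjugating and removing enzymes overlapped between groups.

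Nucleic acid effectors were low in young cells, and their senescent counts sat mostly in replicate 2. OAS2, a synthetase that activates RNase L, had 0 counts in both young control libraries and 6 and 34 in the senescent ones. With the block its edgeR adjusted p was 0.022 (0.29 without it), and no fold is given, since the young group was at 0. MX1, a GTPase that blocks virus replication, had 18 and 26 counts in young and 13 and 143 in senescent controls, so that replicate 1 did not exceed the young libraries. OAS3 had 135 and 120 against 66 and 292 counts, with the same pattern. MX2 had 1 and 0 against 1 and 17 counts, OAS1 0 and 0 against 1 and 7, and RSAD2 1 and 1 against 1 and 5. IFI27, a mitochondrial protein often used to report interferon exposure, had 2.05 and 1.66 TPM in young and 3.28 and 12.9 in senescent controls, apart in every library (2.27 ± 0.75, edgeR adjusted p = 0.52).

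No IFIT protein, sensor or transcription factor of the list was called in controls, with or without the block. IFIT1 had 1.61 and 1.49 TPM in young and 1.64 and 3.62 in senescent controls, and IFIT3 had 4.98 and 5.92 against 5.89 and 8.80. IFIT5 had 12.9 and 10.4 against 11.1 and 8.78 TPM, with overlap (−0.09 ± 0.22). The RNA sensor DDX58, also called RIG-I, had 9.79 and 5.13 against 11.6 and 6.55 TPM, a pattern in which replicate 1 was high in both states. IFIH1, the sensor MDA5, stayed at or under 0.55 TPM in all control libraries. STAT2 had 35.1 and 36.1 against 29.7 and 34.0 TPM (−0.02 ± 0.23), IRF9 21.6 and 31.3 against 22.3 and 44.4, and IRF7, which amplifies interferon production, 2.36 and 3.30 against 2.26 and 5.40. PLSCR1, a scramblase, was the lowest of the 23 members with a mean of at least 5 CPM in a group, at 7.40 and 7.40 against 5.57 and 5.56 TPM (−0.27 ± 0.24, edgeR adjusted p = 0.89). Over the 37 members, groups did not overlap in 12 upward, against 17.8% of genes, and in 2 downward, against 18.1%.

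Within replicates the contrast was uneven. Shares of all genes above 0 within replicates were not computed, here or below. Senescent minus young control RNA in replicate 1 was above 0 for 21 of 37 members, with a median of 0.13 on log2 CPM, and in replicate 2 for 34 of 37, with a median of 0.62. IFI6 differed by 1.40 in replicate 1 and 2.72 in replicate 2, IFITM1 by 1.71 and 2.18, and ISG15 by 1.17 and 1.64, so these 3 were higher in each replicate taken alone. MX1 differed by −0.01 and 2.50 and OAS3 by −0.56 and 1.39, so these were higher in replicate 2 alone. Without the senescent replicate 2 libraries the median of members was 0.04 and no member was called. The log2 fold changes of IFI6, IFITM1 and ISG15 were then 1.10, 1.25 and 0.68.

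**Figure D3:**
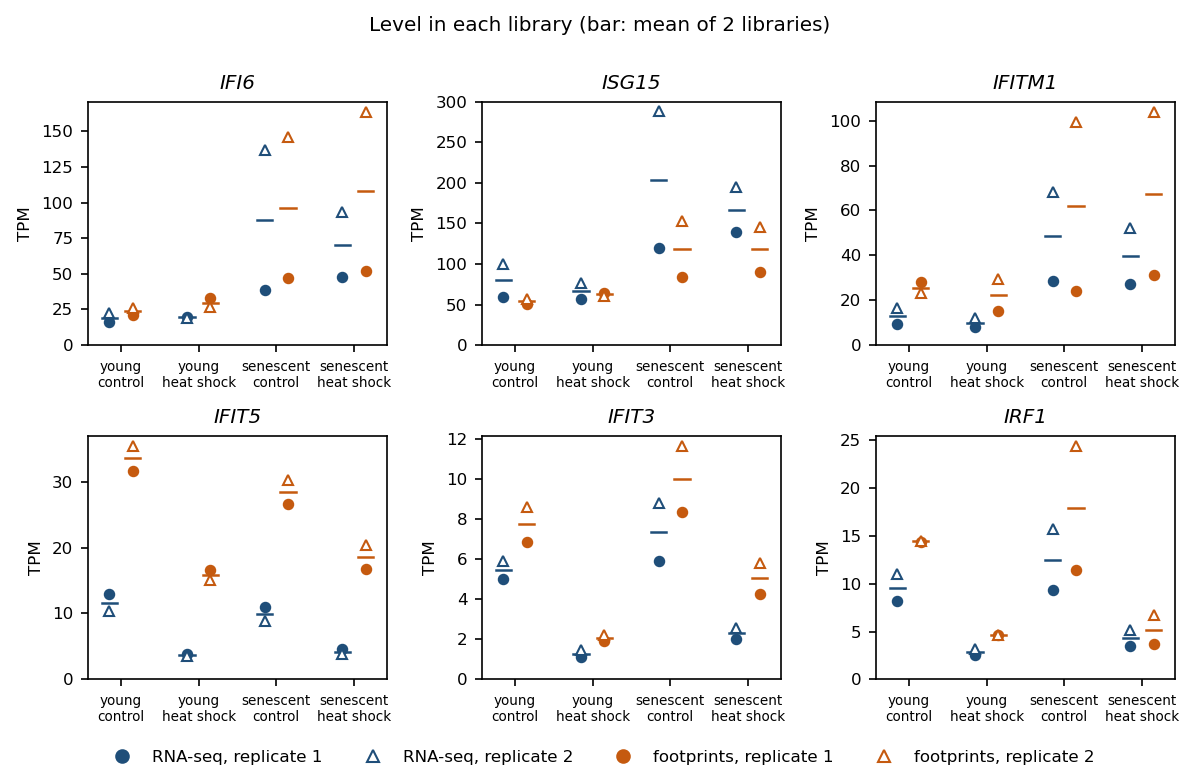
TPM of 6 members in every library, with RNA in blue, footprints in orange, replicate 1 as filled circles, replicate 2 as open triangles and the mean of each pair as a bar (y axes differ by gene). IFI6, ISG15 and IFITM1 are highest in replicate 2 of the senescent groups in both assays, and IFIT5, IFIT3 and IRF1 are lower after heat shock in RNA of both states.

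After heat shock IFI6, ISG15 and IFITM1 were again higher in the senescent libraries. IFI6 RNA had 19.9 and 19.3 TPM in young and 47.7 and 93.4 in senescent heat-shocked cells, ISG15 57.4 and 76.8 against 140 and 195, and IFITM1 8.11 and 12.0 against 27.5 and 52.2. None of these groups overlapped, and replicate 2 was again the higher senescent library. Their log2 fold changes were 1.97 ± 0.60, 1.42 ± 0.48 and 2.11 ± 0.56, with edgeR adjusted p of 0.33, 0.37 and 0.27, and with the block 0.023, 0.0097 and 0.0061. No gene of the whole table was called without the block (0%), and 5 of 37 members had an unadjusted p under 0.05, against 11.5% of genes. With the block, ISG15, IFI6, IRF1, IFITM1 and IFIT3 were higher, 5 of 37 against 8.12% of genes, and 0 were lower, against 5.62%. DESeq2 called 2 and limma 0. IRF1, a transcription factor induced by interferon gamma, had 2.56 and 3.16 against 3.51 and 5.13 TPM (0.70 ± 0.39, edgeR adjusted p with the block 0.042), and IFIT3 1.09 and 1.47 against 2.02 and 2.57 (0.94 ± 0.37, with the block 0.028). The median of members was 0.36, against −0.04 for all genes, and it was 0.10 without the senescent replicate 2 libraries. The groups were apart in 17 members upward, against 21.7% of genes, and in 3 downward, against 21.3%.

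In footprints IFI6 and ISG15 were again higher in both senescent libraries than in both young ones. In controls IFI6 footprints had 21.4 and 25.8 TPM in young and 47.1 and 146 in senescent cells, a log2 fold change of 2.06 ± 0.63 (edgeR adjusted p = 0.43). ISG15 had 50.8 and 57.1 against 84.5 and 152 TPM, also without overlap (1.16 ± 0.35, edgeR adjusted p = 0.40). IFITM1, however, had 28.2 and 23.1 against 24.3 and 99.3 TPM, so that senescent replicate 1 lay within the young range. TRIM22 had 19.7 and 20.6 against 57.9 and 36.5 TPM, where replicate 1 was the higher one (1.25 ± 0.42, edgeR adjusted p = 0.46). No member passed edgeR's test in control footprints, where 0% of 11288 genes did, and 6 of 29 had an unadjusted p under 0.05, against 7.84%. DESeq2 called 1 member and limma 0. Groups did not overlap in 11 members upward, against 24.8% of genes, and in 2 downward, against 26.7%. The median of members was 0.35, and −0.10 without the senescent replicate 2 libraries, and by replicate it was −0.11 and 0.65. In senescent control footprints the summed level of the 42 members was 1189 TPM in replicate 1 and 2061 in replicate 2, against 1157 and 1135 in the young controls.

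After heat shock, SAMD9, SAMD9L, DDX58, IFIT3, IFI6 and ISG15 footprints were higher in both senescent libraries than in both young ones. The states were apart in 16 of 29 members upward, against 20.4% of genes, and in 0 downward, against 20.1%. SAMD9, a restriction factor against poxviruses, had 3.00 and 4.20 TPM in young and 6.41 and 11.1 in senescent cells, and its paralogue SAMD9L 3.11 and 3.44 against 5.35 and 8.28. DDX58 had 5.70 and 4.90 against 11.0 and 10.8 TPM, where both senescent libraries were close to each other, and its log2 fold change was 1.19 ± 0.22 (edgeR adjusted p = 0.17). IFIT3 had 1.89 and 2.19 against 4.23 and 5.82 TPM (1.43 ± 0.38, edgeR adjusted p = 0.24). IFI6 had 33.0 and 26.6 against 52.2 and 163 TPM, and ISG15 64.2 and 60.7 against 90.5 and 146. In none of these did the groups overlap. No member was called, where 0% of genes were called higher and 1 gene lower (0.00886%), and 9 of 29 had an unadjusted p under 0.05, against 13% of genes. DESeq2 called 2 and limma 0. The median was 0.63, against 0.00 for all genes, and 0.16 without the senescent replicate 2 libraries. Within replicates, 21 of 29 members were above 0 in replicate 1, with a median of 0.31, and 27 of 29 in replicate 2, with a median of 1.13.

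Heat shock asks whether stress moves the programme. In RNA of young cells IFIT5, an IFIT protein that binds RNA, fell, and IFIT3, IRF1 and PARP9 were lower in both heat-shocked libraries than in both controls. IFIT5 had 12.9 and 10.4 TPM in control and 3.87 and 3.50 after heat (−1.40 ± 0.22, edgeR adjusted p = 0.032). It was the only member called, 1 of 37 against 0.471% of genes called lower, and 0 members were called higher, against 0.668%. The call was lost in each of 8 fits that left out 1 library, with adjusted p of 0.056 to 0.27 and log2 fold changes of −1.50 to −1.29. At an unadjusted p under 0.05 there were 5 of 37 members, against 10.1% of genes. With the block IFIT5, IFIT3, IRF1 and PARP9 were lower, 4 of 37 against 5.13% of genes, and 0 were higher, against 3.64%. DESeq2 called 3 members and limma 2.

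IFIT3, which stabilises IFIT1 on RNA, had 4.98 and 5.92 TPM in young control and 1.09 and 1.47 after heat (−1.85 ± 0.36, edgeR adjusted p = 0.068, with the block 0.0014). IRF1 had 8.16 and 11.0 TPM and then 2.56 and 3.16 (−1.49 ± 0.39, edgeR adjusted p = 0.17, with the block 0.0020). PARP9, an ADP-ribosylating partner of the ubiquitin ligase DTX3L, had 4.83 and 5.42 TPM and then 1.97 and 2.09 (−1.07 ± 0.35, edgeR adjusted p = 0.30, with the block 0.022). DTX3L itself had 5.42 and 6.16 TPM and then 4.69 and 4.90 (−0.01 ± 0.34), a near-zero change on the TMM scale. IFIT1 and IFIT2 gave −0.63 ± 0.41 and −0.70 ± 0.39, both lower in both heat-shocked libraries. IFI6, ISG15 and IFITM1, described above between the states, gave 0.28 ± 0.60, 0.01 ± 0.48 and −0.11 ± 0.57 on heat, within their spread. IFITM3 gave 0.30 ± 0.31, STAT2 −0.15 ± 0.23 and IRF9 −0.27 ± 0.42. Groups did not overlap in 11 members downward, against 20.7% of genes, and in 5 upward, against 19.5%. The median was −0.15, against 0.01 for all genes.

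In senescent cells IFIT5, IFIT3, IFIT1 and IRF1 RNA was lower in both heat-shocked libraries than in both controls. IFIT5 RNA had 11.1 and 8.78 TPM in control and 4.61 and 3.81 after heat (−1.04 ± 0.22, edgeR adjusted p = 0.14, with the block 0.0079). IFIT3 had 5.89 and 8.80 TPM and then 2.02 and 2.57 (−1.49 ± 0.35, edgeR adjusted p = 0.19, with the block 0.0048). IRF1 had 9.38 and 15.7 TPM and then 3.51 and 5.13 (−1.31 ± 0.38, edgeR adjusted p = 0.32, with the block 0.0046). IFIT1, the protein that binds mRNA caps lacking a methyl mark, had 1.64 and 3.62 TPM and then 0.75 and 0.78 (−1.57 ± 0.41, edgeR adjusted p = 0.24, with the block 0.034). PARP9 had 4.12 and 6.43 TPM and then 2.22 and 2.83 (−0.81 ± 0.35, with the block 0.065). In each of these the control and heat-shocked libraries did not overlap. No member was called without the block, where 0.364% of genes were called higher and 0.212% lower, and 7 of 37 had an unadjusted p under 0.05, against 8.29%. With it IRF1, IFIT5, IFIT1 and IFIT3 were lower, 4 of 37 against 3.62% of genes, and 0 higher, against 2.66%. DESeq2 called 2 and limma 0. Groups did not overlap in 10 members downward, against 16.4% of genes, and in 0 upward, against 14.7%. The median was −0.19. It was −0.00 without both senescent replicate 2 libraries, −0.80 without the heat-shocked one alone and 0.28 without the control one alone.

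**Figure D4:**
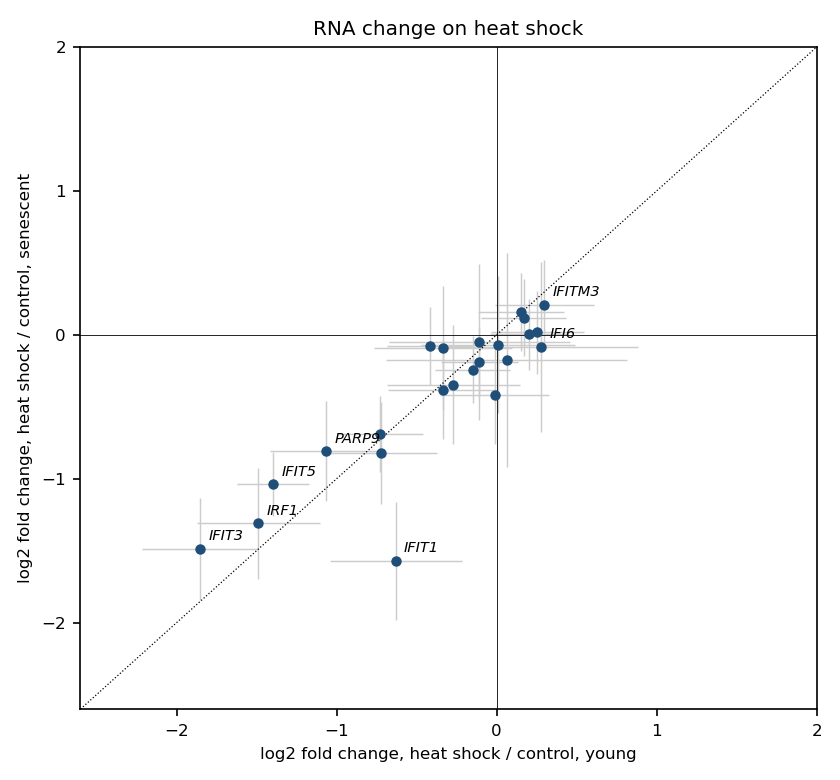
RNA log2 fold change on heat shock in young (x axis) and senescent cells (y axis) for 23 members with a mean of at least 5 CPM in a group, with SE bars and the line of equal change. IFIT3, IRF1, IFIT5 and PARP9 lie at −0.81 or below on both axes, and IFIT1 lies below the line at −0.63 and −1.57.

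The heat responses of the 2 states were compared directly. No member was called in RNA or in footprints (0 of 37 and 0 of 29 by edgeR, by DESeq2 and by limma). Of all genes, edgeR called 0% in either assay. At an unadjusted p under 0.05 there were also 0 of 37 and 0 of 29 members, against 0.903% of genes in RNA and 4.91% in footprints. With shares this low, counts of 0 do not set the members apart from other genes. IFIT1 had the largest negative difference in RNA among the 23 members with a mean of at least 5 CPM in a group, −0.94 ± 0.58 (edgeR adjusted p = 1.0), and IFIT3 the largest positive, 0.37 ± 0.51. The errors of these differences are nearly as large as or larger than many of the responses themselves, so smaller differences were not detectable.

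Footprints followed the RNA for some of these genes on heat and not for others. In young cells IFIT3 footprints had 6.86 and 8.60 TPM in control and 1.89 and 2.19 after heat (−1.73 ± 0.38, edgeR adjusted p = 0.067). IRF1 had 14.4 and 14.5 TPM and then 4.59 and 4.60 (−1.46 ± 0.47, edgeR adjusted p = 0.19), and PARP9 4.74 and 4.41 and then 2.34 and 1.53 (−1.04 ± 0.42). IFIT5 had 31.7 and 35.4 TPM and then 16.6 and 15.1 (−0.89 ± 0.23, edgeR adjusted p = 0.12). In all 4 the libraries of control and heat were apart. No member was called, where 0.771% of genes were called higher and 0.381% lower (1.15% in all), and 5 of 29 had an unadjusted p under 0.05, against 16% of genes. DESeq2 called 1, limma 0. Without the senescent replicate 2 libraries, which do not enter this contrast but do enter its spread, 2 members were called. Control and heat-shocked libraries were apart in 9 members downward, against 31.6% of genes, and in 6 upward, against 27.4%. IFITM3 gave 0.83 ± 0.37 and PARP14 0.69 ± 0.30 (edgeR adjusted p = 0.32 and 0.31).

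In senescent cells IRF1 footprints had 11.5 and 24.4 TPM in control and 3.65 and 6.74 after heat (−1.47 ± 0.46, edgeR adjusted p = 0.081). IFIT3 had 8.32 and 11.6 TPM and then 4.23 and 5.82 (−0.69 ± 0.35), also apart. SAMD9 went the other way, with 2.78 and 6.38 TPM in control and 6.41 and 11.1 after heat (1.26 ± 0.42, edgeR adjusted p = 0.096). SAMD9L had 3.14 and 5.33 TPM and then 5.35 and 8.28 (1.01 ± 0.34, edgeR adjusted p = 0.093), and PARP14, an ADP-ribosyltransferase, 2.72 and 5.56 and then 6.76 and 6.04 (0.93 ± 0.31, edgeR adjusted p = 0.092). For SAMD9 and SAMD9L the highest control library lay only just under the lowest heat-shocked one in TPM, and within each replicate the heat-shocked library was the higher. No member was called, while 3.12% of genes were called higher and 5.24% lower (8.35% in all), so that calls were made in this comparison but not among the members. At an unadjusted p under 0.05 there were 4 of 29, against 28.7% of genes. With the replicate block, SAMD9 and SAMD9L were called higher, against 5.98% of genes, and IRF1 lower, against 8.79%. Footprint replicate numbers did not meet the pairing rule given below, so these calls and the comparison within replicates are tentative. DESeq2 called 2 and limma 1. The median of members was 0.31, against 0.03 for all genes, and without both senescent replicate 2 libraries it was 0.30. Without senescent heat shock replicate 2 alone it was −0.33, and without senescent control replicate 2 alone 0.85. Groups did not overlap in 4 members upward, against 26.8% of genes, and in 3 downward, against 27%.

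**Figure D5:**
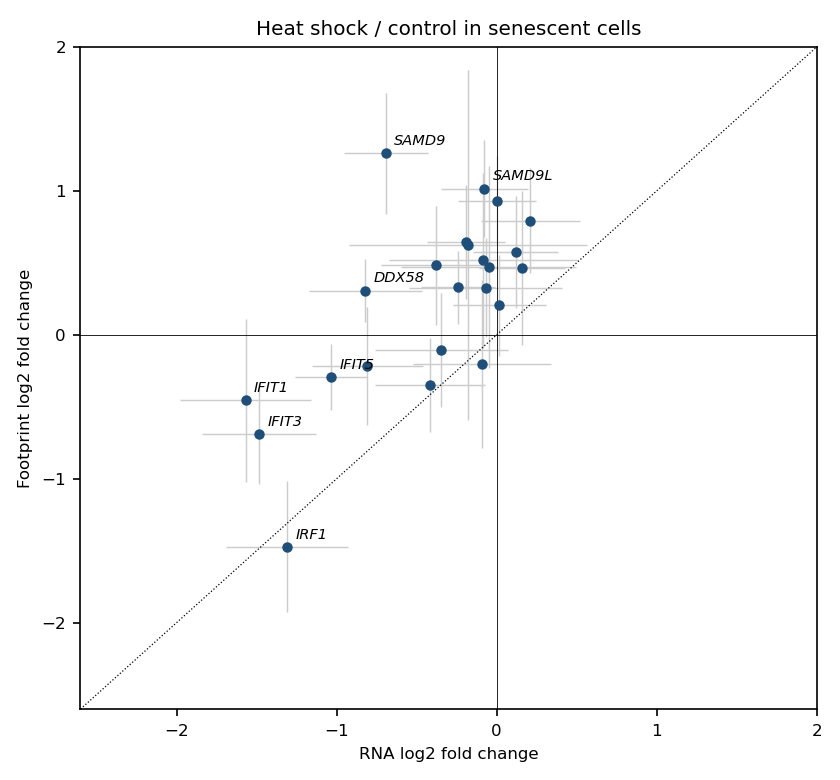
Log2 fold change on heat shock in senescent cells in RNA (x axis) and footprints (y axis) for 23 members with a mean of at least 5 CPM in a group, with SE bars and the line of equal change. Most points lie above the line, SAMD9 farthest at −0.69 and 1.26, and IRF1 lies just under it at −1.31 and −1.47.

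Translational efficiency set the footprint change against the RNA change in 1 fit. In senescent cells on heat shock 26 of 29 members lay above 0, against 52.7% of all genes. The median of members was 0.55, against 0.05 for all genes. SAMD9 had the largest value, 1.93 ± 0.53 (edgeR adjusted p = 0.078). Among members with a mean of at least 5 CPM in a group, DDX58 followed at 1.10 ± 0.44 (edgeR adjusted p = 0.22) and IFIT2 at 1.10. IFIT1 came next at 1.09 ± 0.75 (edgeR adjusted p = 0.49), and then SAMD9L at 1.07 ± 0.45 (edgeR adjusted p = 0.25). No member was called, where 2.43% of genes were called, 5 of 29 had an unadjusted p under 0.05, against 16.7%, and DESeq2 called 1 and limma voom 0. The median was 0.47 without the senescent replicate 2 libraries of both assays. Leaving out single libraries moved it more, to −0.08 without senescent heat shock replicate 2 of the footprints, 0.00 without senescent control replicate 2 of the RNA, and 1.00 without senescent control replicate 2 of the footprints. In young cells the median on heat was 0.21, with 22 of 29 above 0, against 51.8% of all genes. There 0 members were called, where 0.0896% of genes were, and 0 of 29 had an unadjusted p under 0.05, against 4.11%. DESeq2 and limma voom called 0 there. For the difference of the heat responses, for senescent against young controls, and for the states after heat, 0 members were called (0.00896%, 0.00896% and 0% of genes), with 0, 0 and 1 of 29 at an unadjusted p under 0.05 (2.28%, 0.788% and 6.56% of genes), and DESeq2 and limma voom called 0.

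Among themselves the members differed in footprints per RNA, the ratio of TPM in footprints to TPM in RNA in the same group and replicate number. The median of all genes was 0.82 to 0.93 over the libraries. IFIT5 had ratios of 2.41 to 5.37, highest in heat-shocked senescent replicate 2, and PLSCR1 1.84 to 5.65. DTX3L had 1.62 to 2.38 in all libraries. USP18 had 0.23 to 0.54, IFI35 0.40 to 0.68 and ISG15 0.53 to 1.12. The ratios of IFITM3 (0.90 to 1.63) and IFI6 (1.07 to 1.75) lay near or a little above the median of all genes. These ratios describe single libraries and were not tested. They also depend on the length correction in TPM, which differed between the assays by gene. In young control replicate 1, IFI35 had 8.24 CPM and 15.3 TPM in RNA but 8.09 CPM and 9.50 TPM in footprints. IFI6 had 5.73 CPM and 16.2 TPM in RNA and 7.18 CPM and 21.4 TPM in footprints.

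The other genes of the pathway were followed as a list of non-members, 75 of which were tested in RNA. Of the interferons, IFNB1, IFNK, IFNL1 and IFNG had 0 counts in every RNA library, which allows up to 3 counts per library, and IFNA1 had 0 in 6 libraries, 4 in young heat shock replicate 1 and 1 in senescent control replicate 2. IFNE, an interferon of epithelial tissues, had 49 and 2 counts in young control, 39 and 7 in young heat shock, 15 and 1 in senescent control cells, and 2 and 0 in heat-shocked senescent cells, always more in replicate 1, opposite to the stimulated genes. The receptor chains IFNAR1 (8.02 to 18.3 TPM) and IFNAR2 (8.48 to 14.4) and the kinase JAK1 (56.4 to 74.5) were expressed in every library. Of all 75, 0 were called between senescent and young controls without the block. With it 5 were higher, TAP1, LGALS3BP, APOL1, PARP10 and IFI30, against 2.15% of genes, and SLFN11 was lower, against 1.57%. The list's median was 0.19 in that comparison, with 55 of 75 above 0, against 49.6% of all genes. LGALS3BP, a secreted glycoprotein, had 105 and 102 TPM in young and 149 and 215 in senescent controls (0.96 ± 0.27, edgeR adjusted p = 0.38, with the block 0.024), and here both senescent libraries stood clear of the young ones.

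On heat shock, 3 of the 75 pathway genes were called in young cells in RNA, against 1.14% of genes. TRIM26 rose by 2.45 ± 0.25 (edgeR adjusted p = 0.0046) and FAM46A by 3.52 ± 0.37 (edgeR adjusted p = 0.0074), and the ubiquitin ligase TRIM21 fell (−1.67 ± 0.29, edgeR adjusted p = 0.047). In senescent cells TRIM26 (1.88 ± 0.25, edgeR adjusted p = 0.020) and FAM46A (3.23 ± 0.37, edgeR adjusted p = 0.015) rose, 2 of 75 against 0.577% of genes. MB21D1, the DNA sensor cGAS, gave 2.55 ± 0.59 in young and 2.62 ± 0.61 in senescent RNA (edgeR adjusted p = 0.14 and 0.19, with the block 0.010 and 0.019). Its footprints rose in both states, by 3.06 ± 0.47 (edgeR adjusted p = 0.024) and 4.22 ± 0.57 (edgeR adjusted p = 0.0055). Of 69 pathway genes tested in footprints, 3 were called higher in young cells, against 0.771% of genes, and 0 lower, against 0.381%. In senescent cells 4 were called higher, against 3.12% of genes, and 2 lower, against 5.24%. The 2 lower were 1 receptor or kinase and 1 interferon-gamma or antigen gene. The kinase TBK1, which phosphorylates IRF3, gave −1.07 ± 0.45 and −0.86 ± 0.45 in RNA (with the block 0.0039 and 0.018).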

How the data were processed

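RNA-seq and ribosome footprint libraries of WI-38 cells were used, 8 of each, in 8 groups of 2. The authors deposited RSEM expected counts, which were whole numbers, and TPM per gene for every library. STAR, RSEM, Bowtie2 and the build hg19 are named per the submitters' processing notes, while for their roles, versions and annotation nothing is given in the sources used here. Reads shared by near-identical genes are split by such estimation, which can move levels between IFITM2 and IFITM3.

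The expected counts were tested with edgeR 4.0.16 (R 4.3.3; filterByExpr, TMM, quasi-likelihood F test, 1 mean per group over the 8 libraries of an assay, 4 residual degrees of freedom) with Benjamini-Hochberg adjustment over all genes at 0.05. For translational efficiency, 1 fit over all 16 libraries subtracted the change in RNA from that in footprints (8 residual degrees of freedom). SE values are Wald errors from the same fits, and all tests are two-sided. Alternatives were DESeq2 1.42.0, limma 3.58.1 on log2(TPM + 1) and log2(TPM + 0.1) with genes of at least 1 TPM in 2 libraries, scaling by library size, no filter, the 4 libraries of a contrast alone, a replicate block, and each library left out. The test code was checked on simulated data.

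The difference between replicates 2 and 1 correlated across genes between RNA groups (r = 0.48 to 0.66 in all pairs of groups) and, among footprint groups, at r = 0.25 to 0.33 between all but the young controls, which gave −0.04 to −0.03 with the others. Replicate numbers were treated as pairing libraries only where every pair of groups exceeded 0.1 over all genes, which held for RNA and not for footprints. Among the 37 members alone, the RNA correlations ranged from 0.06 to 0.79. That pairing comes from the data, since the labels do not say what the numbers mark. The young control footprint libraries differed beyond sampling noise, though less than other pairs (chi-square per degree of freedom 1.72, against 16.5 to 36.5), and were kept as 2.

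Members and lists were chosen with earlier results of these data known. Members named are those called in any comparison, the 5 largest changes each way per comparison with a mean of at least 5 CPM in a group, the 8 with the highest TPM, and others where a role needs one. Protein sequences were not used here. Promoters came from RefSeq (GRCh38.p14), a different build from that of the counts, and were matched by symbol.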

Additional observations from a re-analysis of the deposited data

Results flagged for a closer look

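Some members moved in opposite directions in 2 groups in footprints, with every library of the groups on its own side in CPM. Such separation was common among all genes on heat, at 31.6% downward in young and 26.8% upward in senescent cells. Between the states it was 26.7% downward in controls and 20.4% upward after heat. The share of all genes that met both conditions at once was not computed. DDX58 footprints changed on heat by −0.26 in young and 0.31 in senescent cells (log2), and the senescent groups overlapped in TPM. STAT2 differed between senescent and young cells by −0.083 in controls and 0.54 after heat shock. Its heat-shocked groups overlapped in TPM, and their nearest libraries had 99.8 (young) and 100.1 CPM (senescent). IFIT5 differed between senescent and young cells by −0.20 in controls and 0.39 after heat shock. The difference itself was tested as the interaction of state and heat and passed for none of the 3, with edgeR adjusted p of 0.83 each for DDX58 (0.57 ± 0.31), STAT2 (0.62 ± 0.36) and IFIT5 (0.60 ± 0.33).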

How the results depend on the processing

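With 2 libraries per group, the number of members called depended on the error model, while no fold change of a named member reversed its sign after a call. Shares of all genes called under these alternative fits are not given here. The counts thus show dependence on the settings and no excess over other genes. In RNA, heat in young cells gave 1 member, 2 with library size scaling, 3 without the filter, 4 with the replicate block, 3 with DESeq2, 2 with limma at either pseudocount, and 0 with limma on unfiltered values, with the 4 libraries alone, without senescent replicate 2, and in every fit without 1 library. Heat in senescent cells gave 0 in RNA, 4 with the replicate block and 2 with DESeq2. Senescent against young controls gave 0, 2 without the filter, 4 with the block and 3 with DESeq2, and after heat 0, 1 without the filter, 5 with the block and 2 with DESeq2. Leaving out 1 library gave 0 in these 3.

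In footprints, heat in young cells gave 0, 2 with library size scaling, 1 without the filter, 1 with the block, 1 with DESeq2, 2 with the 4 libraries alone, 2 without senescent replicate 2, and 0 to 2 without 1 library (1 without senescent heat shock replicate 1 and 2 without its replicate 2). Heat in senescent cells gave 0, 1 with library size scaling, 3 without the filter, 3 with the block, 2 with DESeq2, 1 with limma, and 0 to 3 without 1 library (1 without senescent control replicate 2 and 3 without senescent heat shock replicate 1). Senescent against young controls gave 0, 1 without the filter and 1 with DESeq2, and after heat 0, 3 without the filter, 2 with DESeq2, and 0 to 3 without 1 library (3 without senescent heat shock replicate 1). Efficiency on heat in senescent cells gave 0, 1 without the filter, 1 with the block, 1 with DESeq2, and 0 to 1 without 1 library, the call being SAMD9 (edgeR adjusted p 0.026 without senescent control replicate 2 and 0.021 without senescent heat shock replicate 1 of the footprints). The cause of these differences was not tested. Leaving out senescent replicate 2 was chosen after seeing the data. The block changed no other call. Block counts for footprints and efficiency are given although footprint replicate numbers did not meet the pairing rule.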
